A study of Mus musculus with 6 samples.

Results

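A set of 10 genes that mark sensory ganglion neurons was followed in the soft palate of mouse embryos, in 3 libraries from wild-type controls and 3 from Dlx5-/- embryos, all at stage E14.5. The genes are the transcription factor genes Isl1, Pou4f1, Prdm12, Tlx3, Drgx, Runx1 and Runx3, the channel genes P2rx3 and Piezo2, and Avil, which encodes an actin-binding protein. They are 10 of 49492 gene rows. Of these, 9 were listed under the symbol given here, and Drgx was listed as Prrxl1, its name in RefSeq. The 10 genes were chosen by name, but from earlier results on the same knockout and control libraries. Their differences between the groups are therefore a description, and no test of them counts as support. All 10 passed the filter on low values, a mean over the 6 libraries of at least 1 CPM, the unit of counts scaled to library size, as did 16218 genes in all.

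The tissue was the rear part of the palate. Controls are labelled wild type, and the labels describe neither the Dlx5 allele nor the strain. Whether each library stands for its own embryo is not stated, and p-values therefore cover sample-to-sample spread only, part of which may be technical. Libraries held between 6891798 and 11922442 estimated counts. Dlx5, the deleted gene, had 242, 193 and 113 estimated counts in controls and 7, 15 and 17 in knockouts. Knockout replicate 3 stood apart: its mean correlation with the other libraries was 0.959, against 0.970 to 0.976 for the rest. Results are given with and without it where it bears on them.

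Sensory neurons of the cranial ganglia have their cell bodies outside the brain and send axons into the skin, muscle and mucosa of the head. The trigeminal ganglion serves most of the face and palate. Their identity is built in steps. Isl1 and Pou4f1 act in nearly all somatic sensory neurons from early on, Prdm12 marks the lineage of pain-sensing neurons (nociceptors), and Tlx3 and Drgx act in the same relay system. Runx1 and Runx3 then divide nociceptors from muscle-sensing (proprioceptive) neurons. P2rx3 and Piezo2 are the receptors through which mature neurons sense ATP and touch.

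The promoters of the genes give the sequence context of the set. RefSeq promoter windows on GRCm38.p6 were found for 8 of the 10 genes, as 10 windows because Runx1 and Runx3 have 2 start sites each. The 250 bases before the start site were searched on both strands for 5 motifs. The RUNX core, TGTGGT or ACCACA, was present in windows of 3 genes (Avil, Drgx and the upstream start of Runx3) and in 14% of 32851 such windows of all genes. The CCAAT box, CCAAT or ATTGG, was present in 7 windows of 5 genes (Avil, Isl1, Tlx3, Runx1 and Runx3) and in 33.8% of all windows. It was added to the search after the sequences had been read. The homeodomain core TAATTA (4.84% of all windows), the neurogenin E-box CATCTG or CAGATG (14.4%) and the TATA box TATAAA or TTTATA (12.4%) were found in 0 of the 10 windows. A match is a string of letters and not a binding site. The 3 windows with a RUNX core are shown, with that of Tlx3, which holds 2 CCAAT boxes, for comparison. Each is written 5′ to 3′ on the strand of the gene, and capitals mark the RUNX core and the CCAAT box.

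Avil (chr10:127000459-127000708, plus strand): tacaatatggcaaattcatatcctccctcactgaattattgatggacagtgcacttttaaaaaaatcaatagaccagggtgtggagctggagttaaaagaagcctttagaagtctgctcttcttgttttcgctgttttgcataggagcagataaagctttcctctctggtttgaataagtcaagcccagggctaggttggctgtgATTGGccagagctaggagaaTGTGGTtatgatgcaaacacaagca

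Drgx (chr14:32599677-32599926, plus strand): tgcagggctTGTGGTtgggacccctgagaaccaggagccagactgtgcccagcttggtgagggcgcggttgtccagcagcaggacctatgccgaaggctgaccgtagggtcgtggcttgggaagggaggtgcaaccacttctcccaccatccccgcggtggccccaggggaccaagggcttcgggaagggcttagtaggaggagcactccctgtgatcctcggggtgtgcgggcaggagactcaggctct

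Runx3, upstream start (chr4:135120395-135120644, plus strand): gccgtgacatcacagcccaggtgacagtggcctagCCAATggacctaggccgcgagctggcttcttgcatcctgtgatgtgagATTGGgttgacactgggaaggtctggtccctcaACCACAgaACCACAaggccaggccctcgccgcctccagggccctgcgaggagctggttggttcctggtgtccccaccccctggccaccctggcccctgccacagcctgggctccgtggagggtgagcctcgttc

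Tlx3 (chr11:33203589-33203838, minus strand): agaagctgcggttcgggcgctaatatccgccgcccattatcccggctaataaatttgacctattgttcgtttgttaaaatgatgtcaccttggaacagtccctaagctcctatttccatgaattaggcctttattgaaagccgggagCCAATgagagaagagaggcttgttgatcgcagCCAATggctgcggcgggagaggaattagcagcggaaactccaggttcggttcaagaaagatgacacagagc

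In Avil the RUNX core began 25 bases before the start site, in Drgx 241 bases before it, and in Runx3 as a pair 134 and 126 bases before it. These start sites are those of RefSeq. In GENCODE M21 the gene Drgx begins further upstream, at 32599407, so by that annotation its window lies inside the gene. The windows differed widely in composition. That of Pou4f1 had 78% G and C with 47 CG pairs, and that of Avil 42% with 1 CG pair, against medians of 52.4% and 6 over all windows.

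All 10 genes had lower levels in the knockout, and in each of them every knockout library lay below every control library. Their mean in knockouts was between 38.1% (Avil) and 66.5% (Runx3) of the control mean. The median log2 fold change over the 10 was -0.88, against 0.01 over all 16218 genes. Because the genes were chosen with this contrast known, these counts are printed beside their background and nothing is read from them. Estimates were below 0 for 47.5% of all genes, and 9.71% of all genes had every knockout library below every control library. Levels here are CPM scaled by TMM factors, and log2 fold changes come from edgeR's quasi-likelihood fit. In a bulk sample, fewer cells of a type and less RNA per cell cannot be told apart. Nor can either be told apart from a different share of neighbouring tissue in the dissected pieces, which was not tested.

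**Figure D1:**
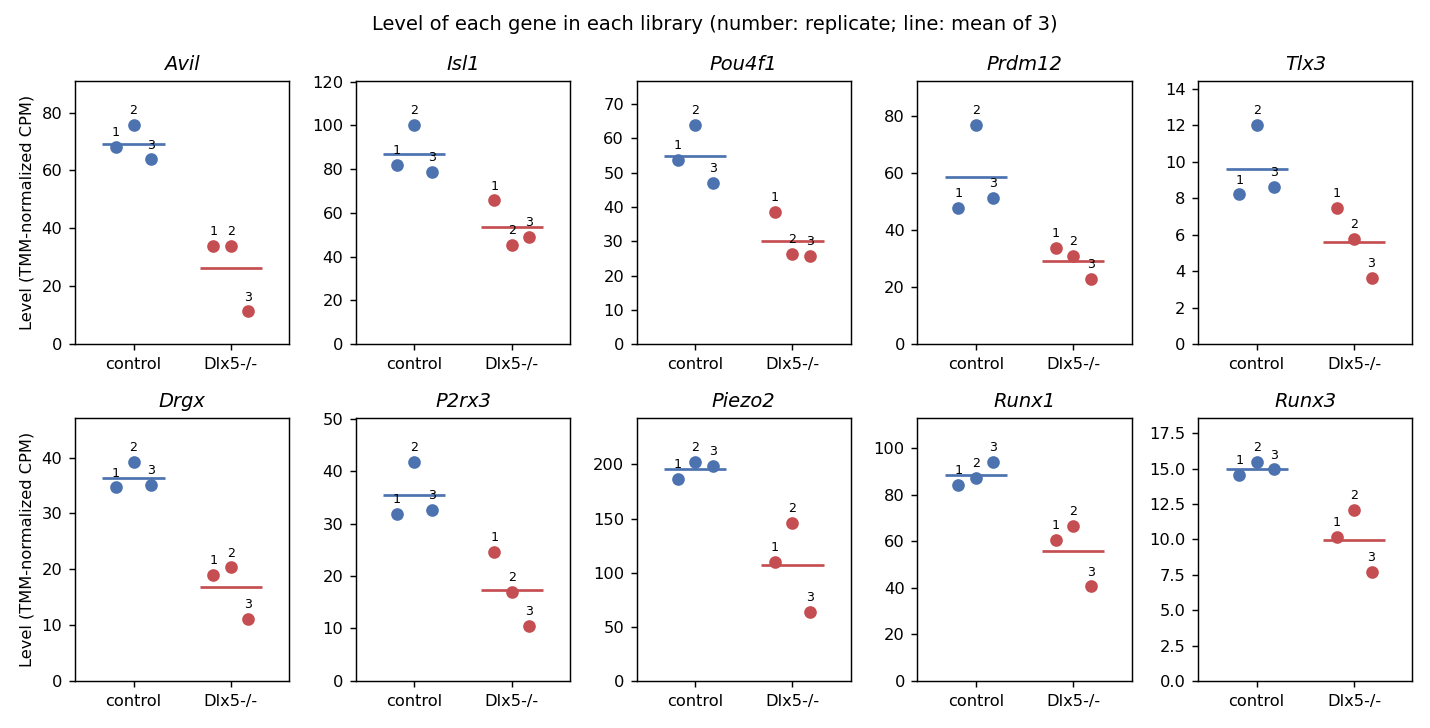
Level of each of the 10 genes (vertical axis, TMM-normalized CPM, from 0) in the 3 control and 3 Dlx5-/- libraries, with points numbered by replicate and a line at the mean of 3. In each panel the knockout points lie below the control points, and knockout replicate 3 is the lowest point in all panels except that of Isl1.

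Isl1 encodes a LIM-homeodomain factor that keeps sensory neurons on their course and also acts in motor neurons and the pituitary. Its GRCm38 position is chromosome 13, 116298281 to 116309689, on the minus strand. Its level was 81.8, 100.3 and 78.8 CPM in control replicates 1, 2 and 3, against 65.7, 45.2 and 49.2 CPM in the same order of knockouts. Knockout replicate 1 was the closest to the controls. The log2 fold change was -0.71 (SE 0.15; 95% confidence interval -1.06 to -0.36), and -0.66 without knockout replicate 3.

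Pou4f1 (also called Brn3a, chromosome 14, 104461676 to 104467999, minus strand) is a POU-domain factor of early sensory neurons. It measured 53.7, 63.9 and 47.0 CPM across controls, with knockouts at 38.6, 26.2 and 25.7 CPM. Here too knockout replicate 1 was nearest the controls, and the other two knockouts were nearly equal. Its log2 fold change was -0.87 (SE 0.18; 95% confidence interval -1.28 to -0.47), and -0.77 without knockout replicate 3.

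Prdm12, a zinc finger regulator needed for nociceptors to form, lies on chromosome 2 from 31640037 to 31655795 (plus strand). Control libraries measured 47.8, 76.9 and 51.2 CPM and knockouts 33.6, 31.0 and 22.9 CPM. Control replicate 2 was far above the other controls, and the control SD was 27.1% of the mean, the widest among the 10 genes. The log2 fold change was -1.02 (SE 0.21; 95% confidence interval -1.50 to -0.55), and -0.87 without knockout replicate 3. Exons of Prdm12 overlap those of Gm13425 on the opposite strand over 200 bases, and whether counting used strand is unknown here. Gm13425 was itself at 8.71 ± 1.03 CPM across controls, with knockouts at 4.18 ± 0.589 CPM (SD, n = 3 each), so reads of this pair may not have been told apart.

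Tlx3 and Drgx encode homeodomain factors of sensory relay circuits, in the ganglia, the dorsal horn and the hindbrain. Tlx3 (chromosome 11, 33200752 to 33203589, minus strand) was the lowest of the 10 genes in CPM, at 8.21, 12.0 and 8.62 CPM across controls, with knockouts at 7.46, 5.76 and 3.62 CPM. Its groups were separated by less than 1 CPM. With 48 to 148 estimated counts per library its estimate was loose, a log2 change estimated at -0.80 (SE 0.30; 95% confidence interval -1.47 to -0.12), and -0.56 without knockout replicate 3. Drgx (chromosome 14, 32599407 to 32649246, plus strand) measured 34.7, 39.3 and 35.1 CPM across controls, with knockouts at 18.9, 20.3 and 11.1 CPM. Its groups lay far apart, and the control SD was 7.05% of the mean. For Drgx the log2 fold change was -1.13 (SE 0.21; 95% confidence interval -1.61 to -0.65), and -0.89 without knockout replicate 3.

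The related factors Runx1 and Runx3, which share the DNA-binding Runt domain and bind with the partner Cbfb, were the members with the smallest differences. Runx1 (chromosome 16, 92601466 to 92826149, minus strand) measured 84.3, 87.1 and 94.3 CPM across controls, with knockouts at 60.5, 66.7 and 40.7 CPM, a log2 change estimated at -0.67 (SE 0.17; 95% confidence interval -1.05 to -0.28). Runx3 (chromosome 4, 135120652 to 135177990, plus strand) measured 14.6, 15.5 and 14.9 CPM and 10.2, 12.1 and 7.70 CPM, a log2 change estimated at -0.60 (SE 0.19; 95% confidence interval -1.03 to -0.16). Both had tight controls and were highest among the knockouts in replicate 2. Without knockout replicate 3 the log2 fold changes were -0.48 and -0.43. Runx1 also acts in blood cells, and both genes act in skeletal tissue. Leukocyte genes, a list of 14 with 13 past the filter, summed to 105 to 163 CPM across controls, with knockouts at 102 to 139.7 CPM, with ranges that overlapped. The bone and cartilage regulator Runx2, the third gene of the family, measured 48.7, 53.1 and 62.1 CPM across controls, with knockouts at 45.7, 58.6 and 21.7 CPM, where the groups overlapped. The part of blood and skeletal cells in the Runx values was not tested.

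P2rx3 encodes an ATP-gated ion channel of nociceptors and Piezo2 the mechanically gated channel of touch and proprioception. P2rx3 (chromosome 2, 84998583 to 85037462, minus strand) measured 31.8, 41.8 and 32.6 CPM across controls, with knockouts at 24.6, 17.0 and 10.5 CPM. Among the knockouts, replicate 3 was far below replicate 1. Its log2 fold change was -1.05 (SE 0.27; 95% confidence interval -1.68 to -0.43), and -0.78 without knockout replicate 3. Piezo2 (chromosome 18, 63010213 to 63387183, minus strand) had the highest CPM of the 10 genes, at 187, 203 and 199 CPM across controls, with knockouts at 109.9, 146 and 64.1 CPM. Its controls agreed closely and its knockouts did not, with an SD of 4.23% of the mean in controls and 38.5% in knockouts. The log2 fold change was -0.88 (SE 0.25; 95% confidence interval -1.45 to -0.31), and -0.62 without knockout replicate 3.

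Avil encodes advillin, a protein of the villin family that binds actin and is found chiefly in sensory neurons. It lies on chromosome 10 from 127000709 to 127020994 (plus strand). It had the largest difference of the 10 genes, at 68.1, 75.7 and 63.8 CPM across controls, with knockouts at 33.9, 33.9 and 11.3 CPM. Knockout replicates 1 and 2 were nearly equal, and knockout replicate 3 lay far below them. For Avil the log2 fold change was -1.42 (SE 0.34; 95% confidence interval -2.21 to -0.63), and -1.04 without knockout replicate 3. Exons of Avil overlap those of Tsfm on the opposite strand over 165 bases, and Tsfm had a log2 fold change of 0.05 (SE 0.22). P2rx3 and Ssrp1 likewise overlap over 51 bases, and Runx1 and Gm26626 over 106 bases.

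With all 6 libraries, 0 of the 10 genes passed an adjusted p of 0.05 in edgeR's quasi-likelihood test (adjusted p from 0.0710 for Drgx to 0.306 for Tlx3). Over all genes 1, Dlx5, was called lower, or 0.00617%. At an adjusted p under 0.1, 4 of the 10 were lower, against 1.58% of all genes: Drgx, Prdm12, Pou4f1 and Isl1. Unadjusted p-values were under 0.05 for 10 of 10, against 7.23% of all genes with such a p and a lower estimate. DESeq2 called 6 of the 10 lower (Drgx, Prdm12, Pou4f1, Isl1, P2rx3 and Runx1), against 2.36% of all genes. Avil, with the largest estimate, was not among them. Limma-trend with a pseudocount of 1 called 0 of the 10, against 0.543% of all genes. Without knockout replicate 3, edgeR called 2 of the 10, Avil and Drgx, against 0.937% of all genes. As above, the contrast had been seen when the genes were chosen, so these counts describe the fits.

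Compared per length, the 10 genes fell into several levels. CPM was divided by kilobases of annotated exon, which overstates the length of transcripts that use only part of the exons. In controls Prdm12 (23.7 ± 6.43 CPM per kilobase, SD, n = 3), Isl1 (22.0 ± 2.93) and Avil (20.4 ± 1.78) were highest, and their libraries overlapped. P2rx3 (12.7 ± 1.99), Pou4f1 (11.7 ± 1.82) and Piezo2 (11.4 ± 0.483) came next, again overlapping each other but not the first 3 genes. Drgx (8.71 ± 0.614) was below these and above Runx1 (7.37 ± 0.428) in every library. Runx1 overlapped Tlx3 (6.27 ± 1.36), and Runx3 (3.00 ± 0.0935) was the lowest. In knockouts Isl1 (13.5 ± 2.75 CPM per kilobase) and Prdm12 (11.8 ± 2.25) were highest and Runx3 (2.00 ± 0.438) the lowest. Avil, at 7.76 ± 3.84 CPM per kilobase, then overlapped Pou4f1 (6.46 ± 1.56), P2rx3 (6.22 ± 2.54) and Piezo2 (6.22 ± 2.39).

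The libraries differed in a shared way. Control replicate 2 was the highest control for 9 of the 10 genes, all but Runx1. Knockout replicate 3 was the lowest knockout for 9 of 10, all but Isl1. The highest knockout was replicate 1 for 5 genes (Isl1, Pou4f1, Prdm12, Tlx3 and P2rx3) and replicate 2 for the other 5. How often these libraries are the extremes over all genes was not computed. On the log2(CPM + 1) scale, the median of the 10 genes relative to the control mean stood at -0.53, -0.84 and -1.23 for knockouts 1, 2 and 3, whereas controls stood at -0.07, 0.17 and -0.11. A list of 18 pan-neuronal genes likewise had its highest median in control replicate 2 (0.24) and its lowest in knockout replicate 3 (-0.89). Knockout replicate 3 also held forebrain and mature brain transcripts. That list, 14 genes with 13 past the filter, summed to 595 CPM there, against 86.7 to 142 CPM in the other libraries, and its median was 2.69 there. Pituitary genes, 6 of 7 past the filter, were lowest in the same library, at 7.54 CPM in sum. The other knockouts had 61.6 and 65.1 CPM, and controls had 105 to 178 CPM. Of the pituitary genes, Pou1f1 stood at 0 in knockout replicate 3. The part of pituitary cells in the values of Isl1, which the pituitary also expresses, was not tested.

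**Figure D2:**
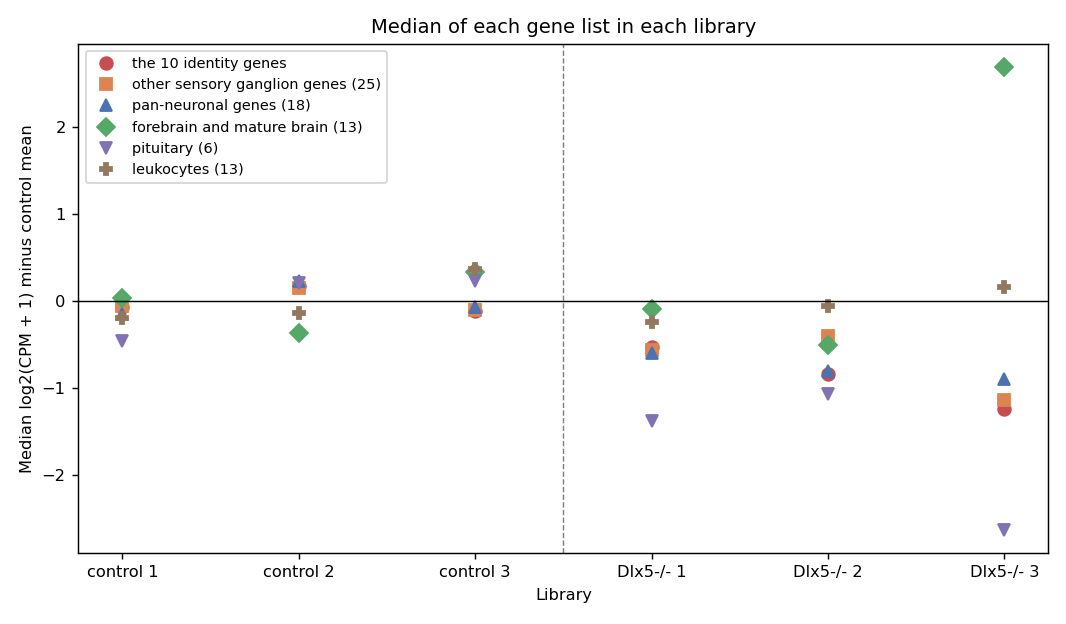
Median of log2(CPM + 1) minus the control mean (vertical axis) for 6 gene lists in each of the 6 libraries (horizontal axis), with the number of genes per list in brackets. The 10 identity genes lie at -0.53, -0.84 and -1.23 in the knockouts, near the pan-neuronal genes, while forebrain and mature brain genes lie at 2.69 in knockout replicate 3.

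To set the 10 genes beside a general neuronal level, their levels were divided by the summed level of 18 pan-neuronal genes, among them Nefm, Nefl, Stmn2 and Tubb3. That sum was 4402, 5605 and 4454 CPM across controls, with knockouts at 3100.1, 2722 and 2502 CPM. Its highest genes weigh most, with Nefm at a mean of 1274 CPM and Nefl at 856 CPM in controls. Nefl and Stmn2 are also among the 5 genes closest in pattern to the 10, given below. On this scale the groups overlapped for 9 of the 10 genes. The share of all genes with separated groups on this scale was not computed, so nothing is read from this count. Isl1 measured 18.6, 17.9 and 17.7 CPM per 1000 pan-neuronal CPM in controls and 21.2, 16.6 and 19.7 in knockouts. The ratio of the knockout to the control mean was 1.06 for Isl1, 0.948 for Pou4f1, 0.870 for Prdm12, 1.00 for Tlx3, 0.931 for Piezo2, 1.08 for Runx1 and 1.14 for Runx3. It was lower for P2rx3 (0.834) and Drgx (0.791), both with overlapping groups. Avil alone of the 10 had every knockout below every control, at 15.5, 13.5 and 14.3 CPM per 1000 in controls and 10.9, 12.5 and 4.52 in knockouts, a ratio of 0.644. The gap between the groups was narrow, from 12.5 to 13.5, and knockout replicate 3 lay far below the rest. The difference between Avil and the other genes was not tested. Snap25, Syt1 and Map2 had their highest values of all libraries in knockout replicate 3 (156, 122 and 143 CPM). Without these 3 genes in the sum, a choice made after seeing them, the groups again overlapped for 9 of 10 and the ratio for Avil was 0.660.

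**Figure D3:**
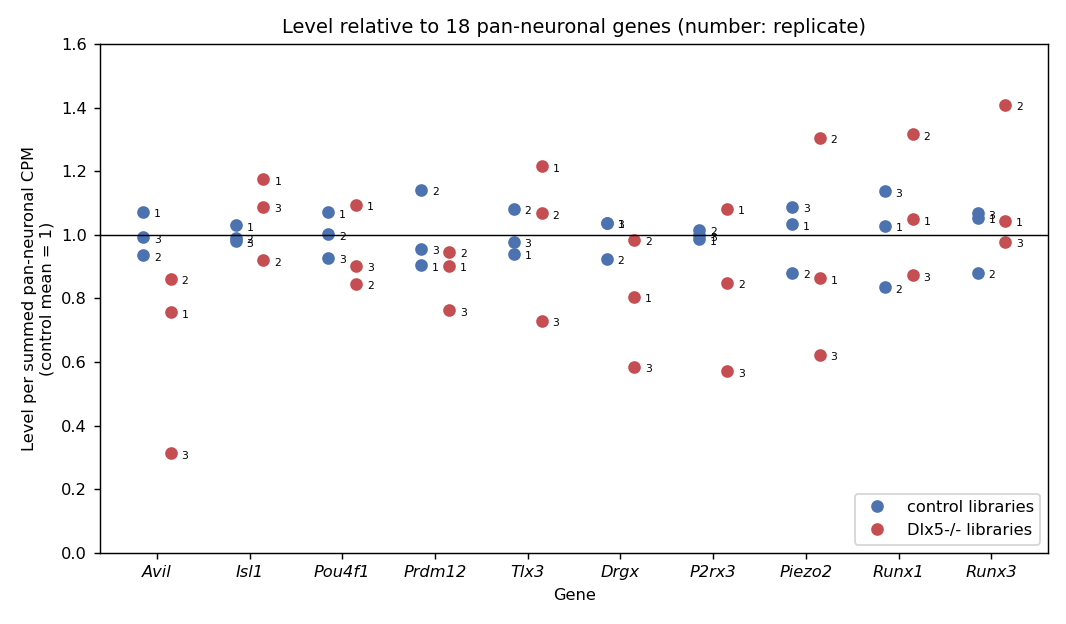
Level of each gene (horizontal axis) divided by the summed CPM of 18 pan-neuronal genes and scaled to a control mean of 1 (vertical axis, from 0), with a point per library numbered by replicate. Control and knockout points overlap for 9 genes, and those of Avil do not.

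Other genes of sensory ganglion neurons were described from a list of 30 textbook genes, written with earlier results of these data known, of which 25 passed the filter. Their median log2 fold change was -0.82, with 19 estimates below 0 and 6 above. In 14 genes every knockout library lay below every control library, against 9.71% of all genes. In 2 genes, Eya1 and Etv1, every knockout lay above, against 9.48% of all genes, a share near the background. None passed edgeR's test at an adjusted p of 0.05. Unadjusted p-values were under 0.05 for 14 lower and 2 higher genes, against 7.23% and 5.6% of all genes. DESeq2 called 8 lower and 2 higher, against 2.36% and 0.728% of all genes, and limma-trend with a pseudocount of 1 called 0. Without knockout replicate 3, edgeR called 4 of the 25, all lower, against 0.937% of all genes: Prph, Nefh, Ret and Scn9a.

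The genes with separated, lower knockouts included several of mature sensory function. Among sodium channels of nociceptors, Scn9a measured 131, 188 and 128 CPM across controls, with knockouts at 74.1, 82.2 and 50.8 CPM, and Scn10a 34.1, 43.5 and 32.9 CPM and 17.8, 27.6 and 10.7 CPM. The heat receptor gene Trpv1 measured 7.77, 9.17 and 7.33 CPM across controls, with knockouts at 4.50, 4.67 and 1.06 CPM. Calca, the gene of the neuropeptide CGRP, had a log2 fold change of -1.14 (SE 0.26). The peripheral neurofilament gene Prph measured 482, 586 and 519 CPM across controls, with knockouts at 284, 269 and 101 CPM. In each of these genes knockout replicate 3 was the lowest library. Other genes of the list differed from these. Etv1 had every knockout above every control (log2 fold change 0.37, SE 0.17). Groups overlapped for Neurod1 (-0.01, SE 0.45), Etv4 (-0.35, SE 0.24), Hmx1 (-0.32, SE 0.34) and Tac1 (-0.32, SE 0.30).

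Receptors for neurotrophic factors were split. Ntrk3, the receptor of proprioceptive neurons, had a log2 fold change of -0.82 (SE 0.19). Ntrk2, which glia and other cells also express, measured 107, 105 and 93.0 CPM across controls, with knockouts at 101, 101 and 139.9 CPM, and its groups overlapped. Ret, the signalling receptor of the GDNF family, measured 87.3, 114 and 95.3 CPM across controls, with knockouts at 38.3, 56.0 and 23.2 CPM. Its co-receptor genes Gfra2 (log2 fold change -0.47, SE 0.18) and Gfra3 (-0.85, SE 0.27) had separated groups, and Gfra1 (0.35, SE 0.16) did not. Among factors of the cranial placodes that other tissues also express, Six4 had a log2 fold change of 0.07 (SE 0.09) and Eya1 of 0.57 (SE 0.14), the last with every knockout above every control. Pvalb, which proprioceptive neurons and muscle both express, had a log2 fold change of 2.27 (SE 0.66) with overlapping groups. The 5 skeletal muscle genes summed to 134 to 207 CPM across controls, with knockouts at 179 to 534 CPM, and their part in the Eya1 and Pvalb values was not tested. The neurogenin genes of new sensory neurons were almost silent: Neurog1 had 1, 7 and 2 estimated counts in controls and 6, 1 and 25 in knockouts, and Neurog2 at most 2 in any library. Mrgprd had 0 counts in every library, where counting error allows up to 3.

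**Figure D4:**
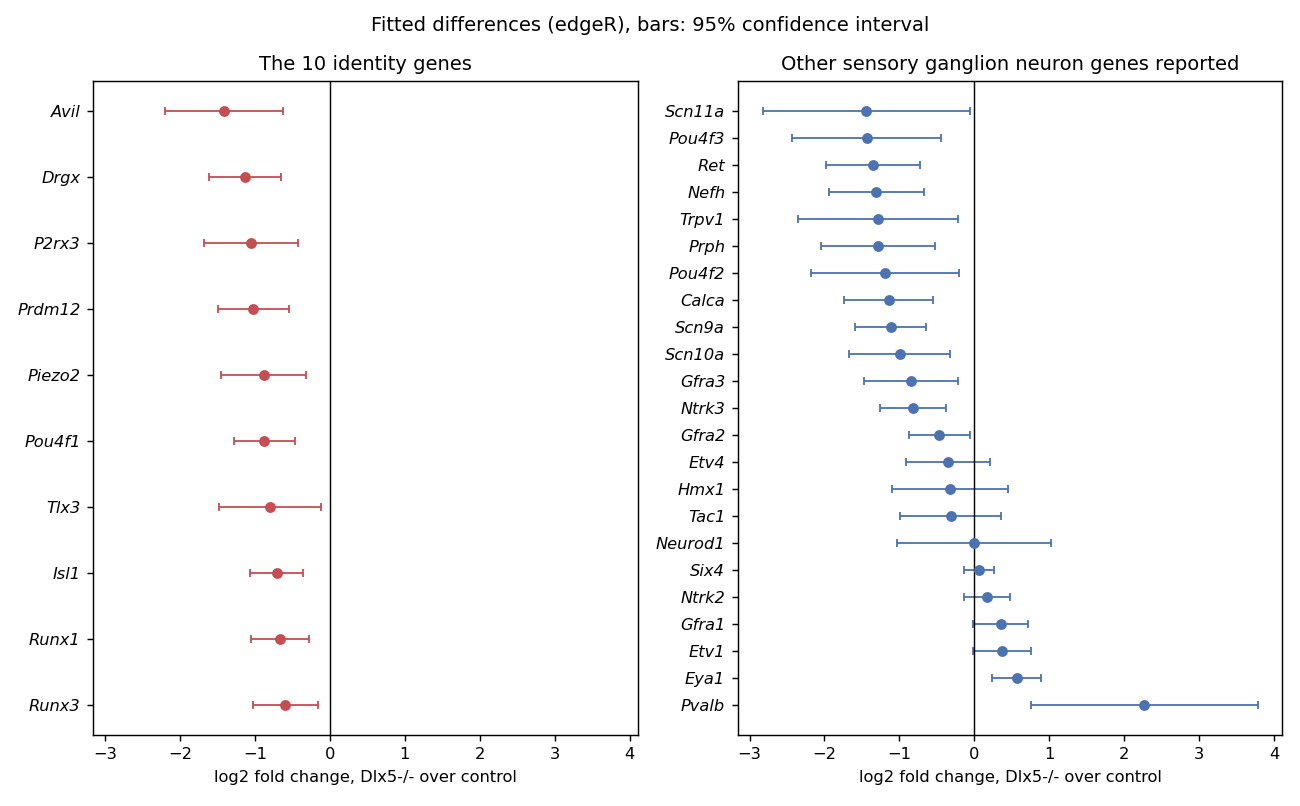
Log2 fold change, knockout over control (horizontal axis), with its 95% confidence interval for the 10 identity genes (left) and the other sensory ganglion neuron genes reported here (right). Estimates for the 10 run from -1.42 (Avil) to -0.60 (Runx3), and those on the right from -1.44 (Scn11a) to 2.27 (Pvalb).

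Relatives and partners of the 10 genes came from a list of 19, of which 14 passed the filter, with a median log2 fold change of -0.09. In 2 of the 14 every knockout library lay below every control library, a share near the 9.71% over all genes. These were Isl2, the relative of Isl1 in motor and sensory neurons (28.6, 40.0 and 25.7 CPM across controls, against 20.1, 20.2 and 15.9 CPM), and Tlx2, a relative of Tlx3 (7.34, 10.6 and 8.91 CPM, and 5.33, 5.33 and 5.66 CPM). The POU4 relatives Pou4f2 and Pou4f3, from the sensory list, had log2 fold changes of -1.19 (SE 0.43) and -1.43 (SE 0.43) with separated groups. Piezo1, the widely expressed relative of Piezo2, measured 68.0, 68.4 and 68.9 CPM across controls, with knockouts at 57.9, 79.4 and 54.5 CPM, and its groups overlapped. Genes of protein partners overlapped between groups as well: Cbfb had a log2 fold change of -0.18 (SE 0.10), Ldb1, which binds Isl1, of 0.12 (SE 0.10), and Ehmt2, a histone methyltransferase that Prdm12 recruits, of -0.05 (SE 0.11). The villin relatives of Avil had overlapping groups, with Gsn at 0.08 (SE 0.15), Scin at 0.27 (SE 0.44) and Vill at -0.07 (SE 0.25) on the log2 scale. P2rx2, whose protein joins with that of P2rx3 in a shared channel, had a log2 fold change of 0.42 (SE 0.48), with overlapping groups.

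Genes of neighbouring cell types were summed in the same way. Schwann cell and satellite glia genes, 10 of 10 past the filter, summed to 251 to 342 CPM across controls, with knockouts at 248 to 336 CPM. Autonomic and visceral neuron genes, 8 of 9 past the filter, summed to 53.0 to 61.8 CPM and 53.9 to 92.0 CPM, and these ranges overlapped too. Its genes differed in direction: Th averaged 23.8 CPM in controls and 11.4 CPM in knockouts with every knockout below every control, whereas Gata2 (log2 fold change 0.87, SE 0.24) and Gata3 (2.07, SE 0.66) had every knockout above. None of these 3 passed edgeR's test (adjusted p from 0.158 to 0.229). Motor neuron genes, 5 of 7, summed to 40.0 to 58.2 CPM across controls, with knockouts at 21.1 to 27.2 CPM, most of it from Isl2. The defining motor neuron genes Mnx1 and Chat did not pass the filter, and all 5 kept genes had estimates below 0. Every knockout lay below every control for Isl2, Lhx3 (log2 fold change -1.74, SE 0.59) and Lhx4 (-2.69, SE 0.84), against 9.71% of all genes. Lhx3 is also in the pituitary list. None of the 5 passed edgeR's test (adjusted p from 0.129 to 0.884). The part of motor neurons in the Isl1 values was not tested. Hindbrain and dorsal neural tube genes, which share Tlx3, Drgx and Prdm12 with the ganglia, had 4 of 13 members past the filter and summed to 7.67 to 20.7 CPM across controls, with knockouts at 10.3 to 15.5 CPM. Of their defining genes, Ptf1a and Olig3 had at most 3 estimated counts in any library. Merkel cells of the epithelium also use Piezo2 and Isl1, and their genes, 3 of 5 past the filter, summed to 59.3 to 84.1 CPM across controls, with knockouts at 53.2 to 60.9 CPM. Of these, Sox2 averaged 21.7 CPM in controls and 15.6 CPM in knockouts with every knockout below every control (adjusted p 0.230 in edgeR's test), and Krt8 and Krt18 overlapped. The defining genes Atoh1 and Krt20 had at most 7 counts in any library. The part of Merkel cells in the Piezo2 and Isl1 values was not tested. The labelled tissue was checked with palate mesenchyme genes, 10 of 10 past the filter, which summed to 529 to 590.2 CPM across controls, with knockouts at 590.4 to 633 CPM. Every knockout sum thus lay above every control sum, by a narrow gap. The genes differed in direction, with 6 estimates below 0, 4 above and a median log2 fold change of -0.27. Prrx1 (0.45, SE 0.12) had every knockout above every control, against 9.48% of all genes. Pax9 (-0.67, SE 0.16) and Lhx8 (-1.19, SE 0.25) had every knockout below, against 9.71% of all genes.

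The 5 genes whose pattern over the 6 libraries lay closest to the mean of the 10 were Apba1, Nefl, Stmn2, Rprm and Dpysl5. Closeness was the root mean square difference between centred log2(CPM + 1) values, over 11547 genes with a mean of at least 5 CPM. It was 0.0504 for Apba1, an adaptor protein gene of neurons, 0.0521 for the neurofilament gene Nefl, 0.0581 for Stmn2, which acts on microtubules in growing axons, 0.0651 for Rprm and 0.0770 for Dpysl5, of the collapsin response family. Nefl measured 774, 979 and 814 CPM across controls, with knockouts at 523, 469 and 313 CPM. The 10 genes themselves lay at 0.124 (Drgx) to 0.406 (Avil) from their own mean.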

How the data were processed

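RNA was measured in 3 control and 3 Dlx5-/- soft palates at stage E14.5, grouped by their titles, with polyadenylated RNA libraries per the labels' protocols. The deposited table holds estimated counts, which the authors made with STAR 2.4.1d and Partek on build mm10, per the submitters' processing notes. The annotation, the counting settings and whether strand was used are unknown: not given in the sources used here. The table is named normalized, but its column totals differ, and 64.5% of values above 0.5 were whole within 0.001. There was 1 further column with no matching sample, left out here. Estimated counts were rounded and tested with edgeR 4.0.16 (R 4.3.3, quasi-likelihood, TMM factors, no block), with a mean of at least 1 CPM and Benjamini-Hochberg adjustment over all 16218 genes kept. SE values were derived from the F statistic. Alternatives were DESeq2 1.42.0, limma-trend 3.58.1, other normalizations, filters and thresholds, a replicate block, and each library left out with the same genes. The test was checked on simulated data. Positions and exon lengths came from GENCODE M21 on GRCm38. The members, lists and alternatives were chosen with earlier results of these data known. Named genes are the members, Dlx5, kept genes of the lists (up to 4 of the highest for cell types), and the 5 genes of closest pattern. Any other gene was named after its values were seen. Estimates with intervals cover the spread between libraries, and a count of 0 allows up to 3 by counting error only. Some genes of the lists are counted in the list totals but not reported singly here.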

Additional observations from a re-analysis of the deposited data

How the results depend on the processing

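Estimates for all 10 genes stayed below 0 under all 14 alternatives that refit the differences, while the number called did not stay at 0. Of the 10 genes, 1 was called with library totals in place of TMM, against 41 of all 16218 genes. With no filter on low counts 8 were called, against 679 of 29870 genes. DESeq2 called 6, against 501 of 16218, and a threshold of 0.1 gave 4, against 299 of 16218. The number called of the 10 was 0 to 2 with 1 library left out, the 2 without knockout replicate 3, against 164 of 16218 genes. Of the 25 other sensory genes, 3 were called with library totals, 12 of 29 tested with no filter, 10 with DESeq2, 4 at a threshold of 0.1, and 0 to 4 with 1 library left out. Over all genes 1 was called with the settings of the report. The count was 679 of 29870 genes tested with no filter and 74 of 12523 with a filter of 5 CPM. Of 16218 genes it was 41 with library totals, 501 with DESeq2, and 97 and 96 with limma-trend at pseudocounts of 1 and 0.5. It was 299 of 16218 at a threshold of 0.1, and 0 to 164 with 1 library left out. Leaving out control 3, knockout 1 or knockout 2 gave 0, control 1 gave 6, control 2 gave 4, and knockout replicate 3 gave 164. The cause was not tested. With a replicate block, 0 genes were called in all, 0 of the 10 and 0 of the 25. Deviations of same-numbered libraries correlated at -0.01, -0.01 and 0.02, and those of differently numbered libraries at -0.05 to 0.06. The numbers thus gave no sign of pairing, which so few libraries cannot exclude. Log2 fold changes moved most for Avil, from -1.67 to -1.04 over the alternatives, and Tlx3, with 48 to 148 counts per library, ran from -1.05 to -0.56.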
